A study of Homo sapiens with 6 samples.

Results

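The clustered protocadherins of chromosome 5 were examined in untreated AID-DIvA cells with and without ARID1A. Members were all genes on chromosome 5 of the deposited tables whose name begins with PCDHA, PCDHB or PCDHG and follows the numbering of the alpha, beta and gamma clusters, which gave 55 of the 57820 listed genes. The alpha cluster holds 16 of them (chr5:140165876-140391936 in GRCh37), the beta cluster 18 (chr5:140430979-140627799) and the gamma cluster 21 (chr5:140710252-140892546), and all are on the plus strand. PCDHA14, PCDHB17 and PCDHB18 are listed as pseudogenes.

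AID-DIvA is an osteosarcoma line made from U2OS by integrating a vector that expresses the restriction enzyme AsiSI, and the enzyme was not induced here. RNA-seq covered 3 WT and 3 ARID1A-KO samples, all of this line, all untreated and numbered 3 to 5 in each genotype. The knockout was made by electroporating Cas9 with a pair of crRNAs against ARID1A, a subunit of the SWI/SNF chromatin remodeler, and establishing clones. The study describes its replicates as independent experiments. How many clones were sequenced is not given in the sources used here, so genotype and clone cannot be told apart, and p-values measure the spread between these samples and not between clones.

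Clustered protocadherins are cadherin-like adhesion proteins best known from neurons, where each cell uses a small choice of them and the combination on its surface lets it recognize its own branches. In the alpha and gamma clusters, each gene has its own promoter and a large variable exon, which is spliced to constant exons shared by the whole cluster, whereas beta genes consist of their variable exon. Most of the promoters carry a conserved sequence element with the core CGCT, and their choice depends on CTCF and cohesin, which loop a promoter to distant enhancers, and on DNA methylation. The C-type genes at the ends of the alpha and gamma clusters are regulated differently from the others, and antisense transcription through alpha variable exons is part of promoter choice in that cluster.

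The promoters of 7 members are shown because the results turn on these genes: those with the largest rise in each cluster (PCDHA1, PCDHB15 and PCDHGA2), the most abundant gamma gene (PCDHGC3), the beta gene that added most to its cluster (PCDHB6), the most abundant beta gene (PCDHB5) and the member that fell (PCDHGC5). Each sequence is the plus strand of GRCh37 from 100 bases before the start of the Ensembl canonical transcript in GENCODE, which is given for each, and is 74 bases long. Capitals mark CGCT.
PCDHA1 (chr5:140165625-140165698): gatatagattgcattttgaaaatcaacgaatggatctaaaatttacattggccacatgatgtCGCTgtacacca
PCDHB15 (chr5:140624863-140624936): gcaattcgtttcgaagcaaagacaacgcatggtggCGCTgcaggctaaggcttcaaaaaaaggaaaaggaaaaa
PCDHGA2 (chr5:140718227-140718300): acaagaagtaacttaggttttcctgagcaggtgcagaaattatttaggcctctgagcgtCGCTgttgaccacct
PCDHGC3 (chr5:140855433-140855506): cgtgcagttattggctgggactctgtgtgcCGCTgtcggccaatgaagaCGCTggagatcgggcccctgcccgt
PCDHB6 (chr5:140529538-140529611): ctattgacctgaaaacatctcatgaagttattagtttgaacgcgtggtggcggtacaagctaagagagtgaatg
PCDHB5 (chr5:140514688-140514761): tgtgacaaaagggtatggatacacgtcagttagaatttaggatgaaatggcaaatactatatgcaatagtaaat
PCDHGC5 (chr5:140868548-140868621): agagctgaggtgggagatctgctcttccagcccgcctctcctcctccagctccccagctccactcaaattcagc

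A canonical start was found for 53 of the 55 members, all but PCDHA6 and PCDHA7. Plus-strand CGCT beginning 100 to 30 bases before the start was present in 44 of the 53 (83.0%), against 5467 of 19819 promoters of protein-coding genes (27.6%). The window was chosen after seeing the data, so these shares are a description only. It was absent from PCDHA9, PCDHA14, PCDHB5, PCDHB6, PCDHB8, PCDHB17, PCDHB18, PCDHGA12 and PCDHGC5. An altered element, or an element outside the window set by the listed start, is not counted. In PCDHB6, CGGT follows the letters that precede CGCT in PCDHB13. Within the whole 300 bases from 250 before to 50 after the start and on either strand, where so short a word is common, CGCT was present in 94.3% of members and 82.6% of all promoters. The core letters of the CTCF motif (CC, 3 bases of any kind, AG, 2 bases of any kind and GGC), searched on both strands of the same 300 bases, were found in PCDHB9 alone (1.9% of members, against 12.9% of all promoters). The 2 motifs were searched separately, and in PCDHB9 they overlap: the match ends on the first base of its CGCT. Sites spelled a little differently are missed by this exact search, so the low share does not show that CTCF sites are lacking.

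ARID1A itself was measured at 166, 178 and 177 CPM in WT and at 25.1, 27.5 and 25.2 CPM in ARID1A-KO, where CPM are reverse-stranded counts per 1000000 after TMM normalization, which scales libraries to one another. The groups did not overlap, and the log2 fold change of ARID1A was -2.74 ± 0.067 (SE; n = 3 per group, edgeR's quasi-likelihood test, adjusted p = 9.7e-08). Libraries held 54512105 to 84088708 reverse-stranded counts, of which 12007 to 28188 fell on members. Of the mesenchymal and osteoblast markers, VIM, FN1, SPARC and COL1A1 were abundant and RUNX2 was at 11.5 to 18.8 CPM, whereas COL1A2 was at 0.091 to 0.27 CPM.

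Members of all 3 clusters were higher in ARID1A-KO than in WT. Of the 51 members with enough counts to be tested, 25 rose (49.0%) and 1 fell at an edgeR adjusted p under 0.05, and 25 were not called. Among all 19599 genes tested, 17.8% rose and 18.4% fell, and among the 3470 genes with a mean expression within the members' quartiles, 20.6% rose. The median log2 fold change was 0.60 over the tested members (range -1.43 to 3.85) and 0.0066 over all genes tested. By position of the samples, 27 members had every ARID1A-KO sample above every WT sample (24.8% of all genes tested), 2 had every one below (24.8%) and 22 overlapped. PCDHB1, PCDHGA7, PCDHGA8 and PCDHGA12 were too low to be tested, and PCDHGB4 passed the filter through its WT samples alone. PCDHGA3, which rose, had 3 ARID1A-KO samples but only 1 WT sample above the filter's cutoff, so its test depended on its ARID1A-KO samples.

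**Figure D1:**
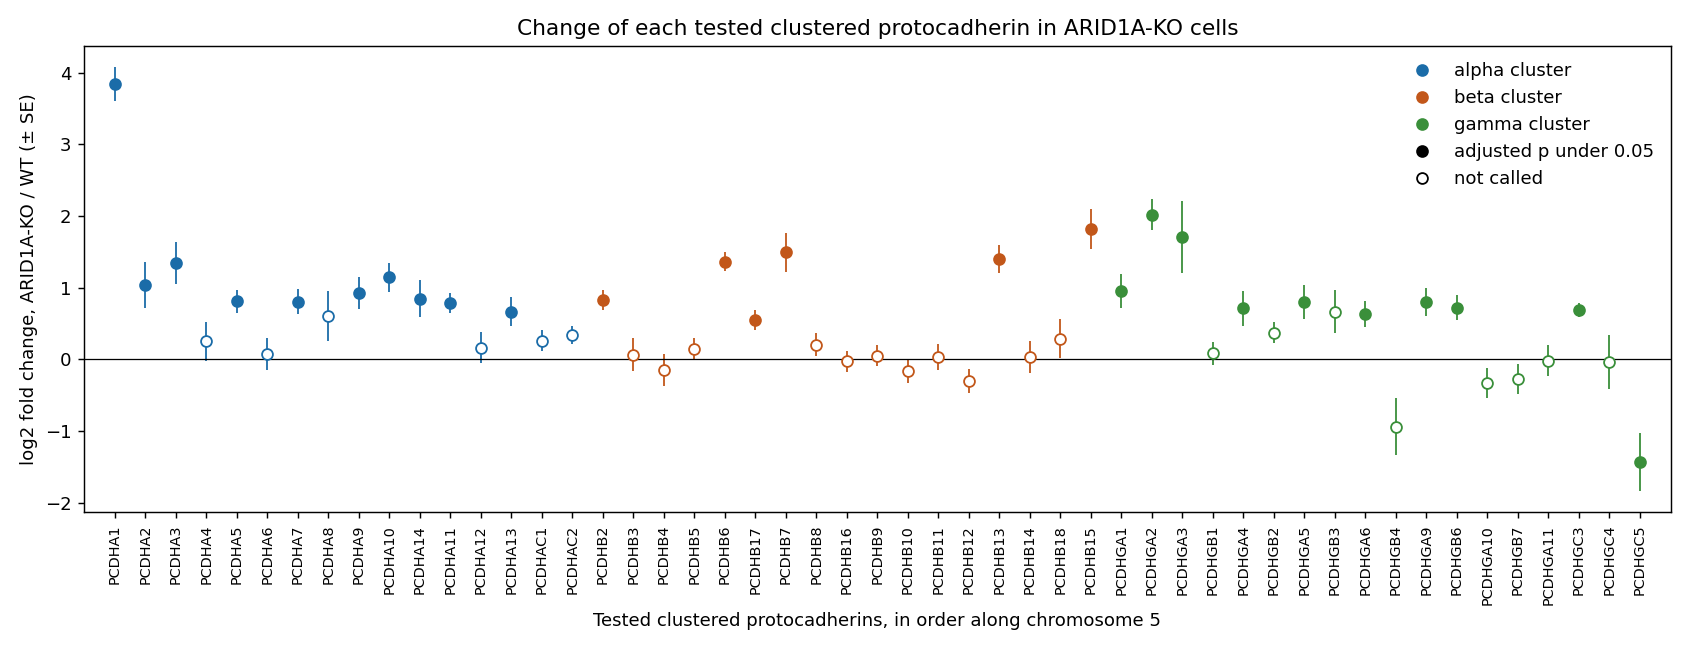
Log2 fold change (ARID1A-KO over WT, y axis) with its SE for each of the 51 tested members in their order along the chromosome (x axis), colored by cluster; filled points have an edgeR adjusted p under 0.05. The 25 filled points above 0 are in all 3 clusters, PCDHA1 stands highest at 3.85, and the 1 filled point below 0 is PCDHGC5.

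The alpha cluster had the most consistent direction among its members: all 16 were tested, all 16 log2 fold changes were positive, and 10 rose (62.5%), with a median log2 fold change of 0.80. All 10 are among the 14 genes PCDHA1 to PCDHA14, and neither C-type gene was called. PCDHA1 (ENSG00000204970.5), at the 5′ end of the whole locus, had the largest change of any member. Its level was 0.58, 0.37 and 0.77 CPM in WT and 7.20, 8.21 and 9.15 CPM in ARID1A-KO. All 3 knockout samples lay far above all WT samples, from 451 to 805 counts against 26 to 45. The mean went from 0.57 ± 0.20 to 8.18 ± 0.97 CPM (SD, n = 3 per group), which is 14.2-fold, and the log2 fold change was 3.85 ± 0.23 (SE; edgeR adjusted p = 5.5e-06).

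The other alpha genes that rose did so by 0.66 to 1.35 on the log2 scale. PCDHA3 was at 0.40, 0.28 and 0.21 CPM in WT and at 0.59, 0.78 and 0.92 CPM in ARID1A-KO, without overlap, with a log2 fold change of 1.35 ± 0.29 (edgeR adjusted p = 0.0061). PCDHA10 was at 1.65, 1.11 and 1.80 CPM in WT and at 2.91, 3.40 and 3.74 CPM in ARID1A-KO, with a log2 fold change of 1.14 ± 0.20 (edgeR adjusted p = 0.0020). Like PCDHA1, both encode transmembrane adhesion proteins that differ mainly in the ectodomain, the part that recognizes the partner on another cell. PCDHA2 (log2 fold change 1.04), PCDHA9 (0.92), PCDHA14 (0.84), PCDHA5 (0.81), PCDHA7 (0.81), PCDHA11 (0.79) and PCDHA13 (0.66) also rose, at edgeR adjusted p from 0.0020 (PCDHA11) to 0.032 (PCDHA2). The call of PCDHA2 was lost in 5 of the 6 fits that leave out 1 sample, and those of PCDHA13 and PCDHA14 in 4. With DESeq2, PCDHA2 (adjusted p = 0.057) and PCDHA9 (adjusted p = 0.053) were not called.

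PCDHA6 and PCDHA12, the most abundant alpha genes in WT per kb of exon that is not shared, were not called. PCDHA6 was at 9.86, 6.85 and 13.02 CPM in WT and 8.56, 9.79 and 12.7 CPM in ARID1A-KO, which overlapped widely (log2 fold change 0.07 ± 0.22, edgeR adjusted p = 0.84). PCDHA12 was at 5.37, 3.03 and 4.90 CPM in WT and 4.30, 4.73 and 5.81 CPM in ARID1A-KO and overlapped too (log2 fold change 0.16 ± 0.21, edgeR adjusted p = 0.59). Of the C-type genes, PCDHAC1 was at 2.98, 2.65 and 3.59 CPM against 3.77, 3.35 and 3.90 CPM, with overlap (log2 fold change 0.26 ± 0.15, edgeR adjusted p = 0.21). PCDHAC2 was at 3.06, 3.44 and 2.92 CPM against 3.98, 3.95 and 3.97 CPM. Its samples did not overlap, but it was not called (log2 fold change 0.34 ± 0.13, edgeR adjusted p = 0.064).

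Fewer genes of the beta cluster were called. Of 17 tested members, 6 rose (35.3%) and 0 fell by edgeR's test, with 0 lower at an unadjusted p under 0.05 and 0 by DESeq2, and the median log2 fold change was 0.14. The 6 were PCDHB2, PCDHB6, PCDHB7, PCDHB13, PCDHB15 and PCDHB17, which lie among genes that were not called. PCDHB6 (ENSG00000113211.3) was at 8.12, 6.79 and 9.35 CPM in WT and at 18.6, 20.3 and 23.4 CPM in ARID1A-KO. Each knockout sample was thus well above each WT sample, and the mean went from 8.09 ± 1.28 to 20.8 ± 2.42 CPM (log2 fold change 1.36 ± 0.13, edgeR adjusted p = 7.0e-05). The promoter of PCDHB6 shown above has no CGCT in the window.

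PCDHB15 had the largest fold change of the beta genes, at 1.23, 0.69 and 0.89 CPM in WT and 2.79, 2.58 and 4.51 CPM in ARID1A-KO (log2 fold change 1.82 ± 0.28, edgeR adjusted p = 0.00089). PCDHB7 was at 1.14, 0.62 and 1.07 CPM against 2.29, 2.13 and 3.45 CPM (1.49 ± 0.27, edgeR adjusted p = 0.0024). PCDHB13 was at 4.78, 3.09 and 4.11 CPM against 9.08, 9.43 and 13.01 CPM (1.40 ± 0.19, edgeR adjusted p = 0.00050). In all 3 genes the groups did not overlap and ARID1A-KO replicate 5 was highest. PCDHB2 was at 11.7, 9.72 and 12.03 CPM against 17.4, 18.1 and 23.9 CPM (0.83 ± 0.14, edgeR adjusted p = 0.0014). The pseudogene PCDHB17 rose least, with a log2 fold change of 0.55 ± 0.14 (edgeR adjusted p = 0.012).

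PCDHB5 was the most abundant beta gene per kb and was not called. It was at 43.2, 31.5 and 43.8 CPM in WT and at 38.0, 38.8 and 53.5 CPM in ARID1A-KO, and the groups overlapped (log2 fold change 0.14 ± 0.16, edgeR adjusted p = 0.52). PCDHB8, next to it in mean level per kb over all samples, was at 17.2, 12.8 and 16.7 CPM against 14.98, 16.5 and 22.1 CPM and overlapped as well (0.20 ± 0.16, edgeR adjusted p = 0.36). The 9 other beta genes that were not called had log2 fold changes between -0.30 (PCDHB12) and 0.29 (the pseudogene PCDHB18).

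In the gamma cluster, 18 of 21 members were tested, 9 rose and 1 fell, with a median log2 fold change of 0.65. Of the A-type genes tested, 7 of 9 rose, and of the B-type genes 1 of 6 did. The A- and B-type genes that rose lie between PCDHGA1 and PCDHGB6, and PCDHGA10, PCDHGB7 and PCDHGA11 downstream of them had log2 fold changes of -0.33, -0.28 and -0.017 and were not called. PCDHGA2 (ENSG00000081853.13) had the largest rise, from 0.37, 0.30 and 0.34 CPM in WT to 1.12, 1.42 and 1.58 CPM in ARID1A-KO. The lowest knockout sample was above the highest WT sample by more than either group's range (log2 fold change 2.02 ± 0.22, edgeR adjusted p = 0.00013).

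PCDHGA3 was the lowest of the members that rose, with 11, 2 and 7 counts in WT and 26, 11 and 36 counts in ARID1A-KO (log2 fold change 1.70 ± 0.50, edgeR adjusted p = 0.026). Its value rests on few counts and its call was lost in 4 of the 6 fits that leave out 1 sample. PCDHGA1 (0.95), PCDHGA9 (0.80), PCDHGA5 (0.80), PCDHGB6 (0.72), PCDHGA4 (0.71) and PCDHGA6 (0.63) also rose on the log2 scale, at edgeR adjusted p from 0.0094 (PCDHGA9) to 0.045 (PCDHGA4). The calls of PCDHGA4 and PCDHGA5 were lost in 4 of those 6 fits and that of PCDHGA6 in 3, and DESeq2 did not call PCDHGA5 (adjusted p = 0.073) or PCDHGA6 (adjusted p = 0.062). PCDHGB1, the most abundant gamma gene per kb after PCDHGC3, was at 2.67, 2.21 and 3.02 CPM in WT and 2.78, 2.55 and 3.01 CPM in ARID1A-KO, which overlapped (0.08 ± 0.16, edgeR adjusted p = 0.72).

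The C-type genes of the gamma cluster differed among themselves. PCDHGC3 (ENSG00000240184.2), the most abundant gamma gene, was at 18.4, 22.2 and 22.3 CPM in WT and at 33.2, 36.8 and 31.1 CPM in ARID1A-KO. The groups did not overlap, and the log2 fold change was 0.68 ± 0.097 (edgeR adjusted p = 0.00064). PCDHGC5 was at 0.30, 0.69 and 0.33 CPM in WT and at 0.18, 0.20 and 0.12 CPM in ARID1A-KO, and fell by 1.43 ± 0.40 on the log2 scale (edgeR adjusted p = 0.021). WT replicate 4 held 49 counts of PCDHGC5 and the other WT samples 20 and 19, and the call was lost without WT replicate 4, ARID1A-KO replicate 3 or ARID1A-KO replicate 5, where the highest adjusted p was 0.074. PCDHGC4 was at 0.12 to 0.23 CPM in both groups and was not called (log2 fold change -0.04 ± 0.37, edgeR adjusted p = 0.95).

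**Figure D2:**
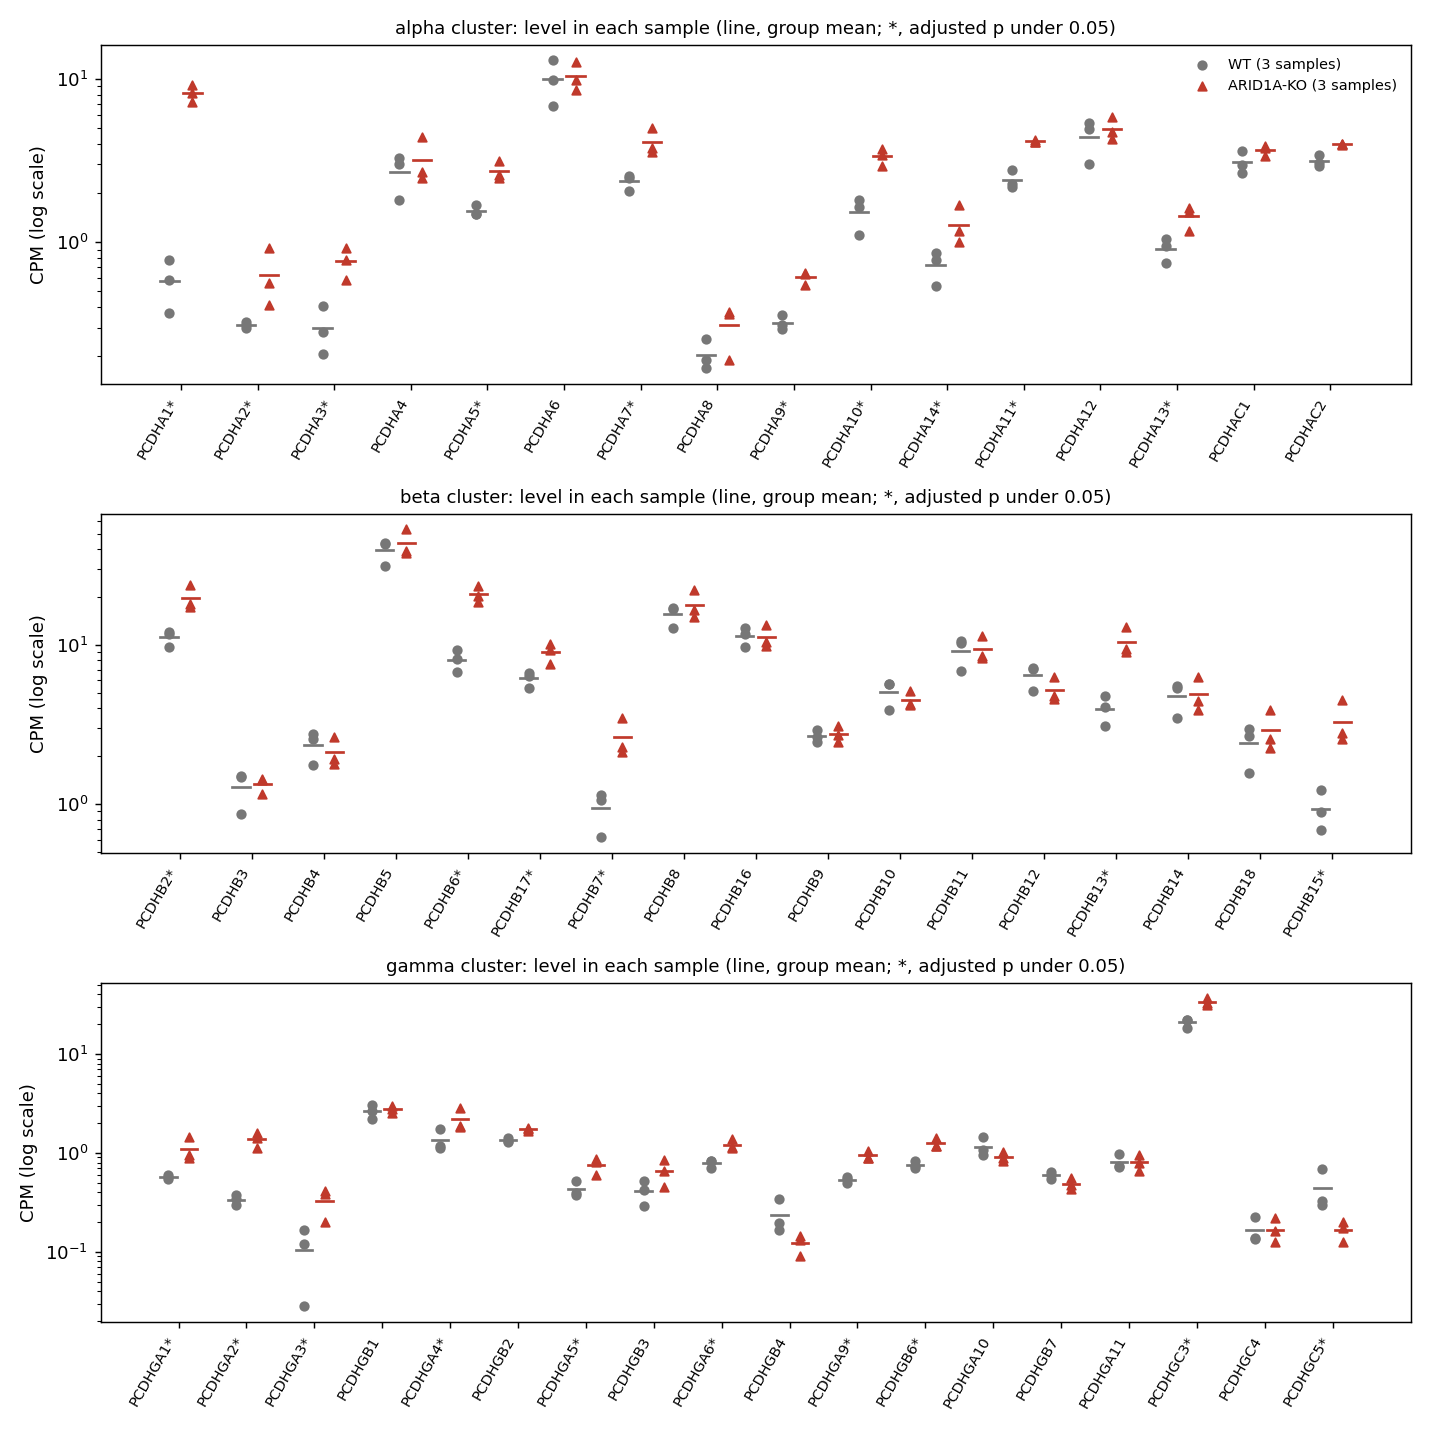
CPM (log axis) of each tested member in each of the 3 WT (gray circles) and 3 ARID1A-KO samples (red triangles), with group means as lines, in 3 panels by cluster and in chromosome order; an asterisk marks an edgeR adjusted p under 0.05. PCDHA1, PCDHB6 and PCDHGA2 show wide gaps between the groups, whereas PCDHA6, PCDHB5 and PCDHGB1 overlap; CPM is not scaled by gene length, so heights compare samples and not genes.

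The sums over each cluster were higher in ARID1A-KO in every sample. The alpha genes summed to 34.4 ± 6.31 CPM in WT and 53.7 ± 7.60 CPM in ARID1A-KO (SD, n = 3, 1.56-fold), the beta genes to 132 ± 21.4 and 172 ± 31.3 CPM (1.30-fold) and the gamma genes to 33.9 ± 1.16 and 51.1 ± 2.06 CPM (1.51-fold). A few genes held most of each difference. PCDHA1 held 39.5% of the alpha difference, and without it the alpha sum was 1.34-fold higher. PCDHB6 held 32.0%, PCDHB2 21.8% and PCDHB13 16.4% of the beta difference. PCDHGC3 held 73.7% of the gamma difference, and the other gamma genes together were 1.35-fold higher. No test was run on these sums.

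The make-up of the clusters was compared as CPM per kb of exon outside the shared constant exons. These constant exons come to 2869 bases in the alpha and 2177 bases in the gamma cluster and overlap many genes on the same strand, which counting by strand does not separate. Their reads were evidently not credited to every gene that includes them. PCDHGA8, whose listed exons include them, held 2 to 11 counts per sample where PCDHGC3 held 1230 to 2735. Whether they were credited to a single gene such as PCDHGC3, whose level and share would then be too high, was not tested. The variable exons of neighboring genes are also similar in sequence, and how reads matching several genes were handled is not given in the sources used here.

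On this scale, PCDHA1 made up 1.63 ± 0.29% of the alpha total in WT and 15.3 ± 0.60% in ARID1A-KO (SD, n = 3), which made it the second most abundant alpha gene of the knockout samples. PCDHA6 stood first in both groups, and its share was 28.1%, 25.7% and 33.3% in WT and 18.6%, 19.4% and 20.9% in ARID1A-KO, without overlap, although its own level was not called. In the beta cluster, PCDHB5 held 32.1 ± 0.61% in WT and 26.9 ± 0.58% in ARID1A-KO, and PCDHB6 went from 6.02 ± 0.46% to 11.9 ± 0.84%. PCDHGC3 held 55.6%, 63.9% and 63.0% of the gamma total in WT and 66.3%, 68.0% and 60.5% in ARID1A-KO, and these overlapped. Shares within a cluster are tied to one another, so the gain of one gene lowers the others, and they were not tested.

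**Figure D3:**
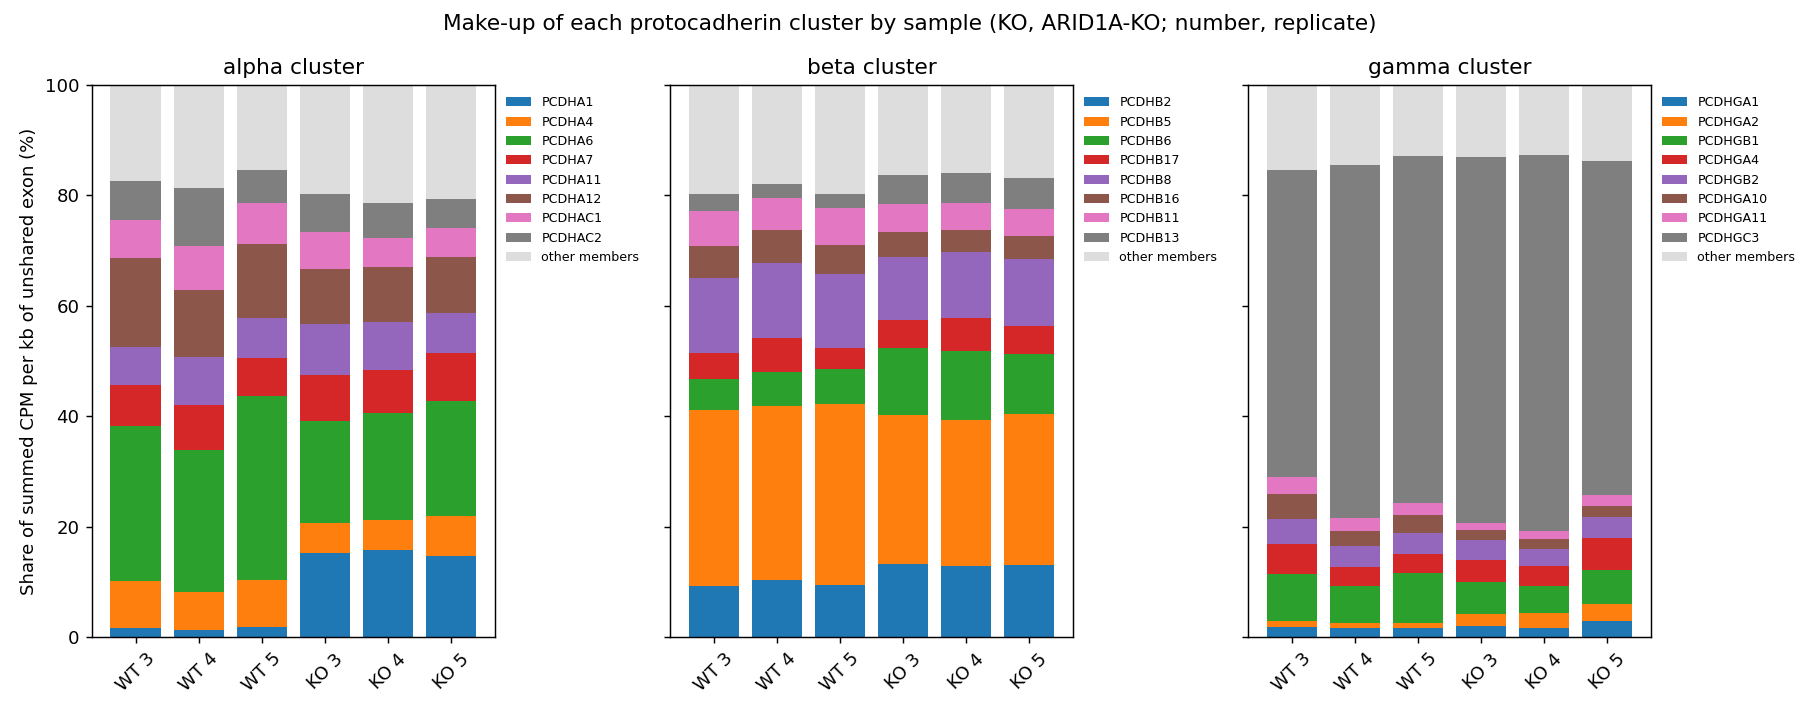
Share of each cluster's summed CPM per kb of unshared exon (y axis, percent) in each sample (x axis, genotype and replicate number), with the 8 genes of the largest shares in color and the others in light gray. PCDHA1 forms a thin band in WT (1.63% on average) and a wide one in ARID1A-KO (15.3%), while PCDHGC3 fills most of the gamma bars in both.

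The samples of a group did not vary independently across the members. WT replicate 4 was the lowest WT sample for 36 of the 51 tested members, and ARID1A-KO replicate 5 was the highest knockout sample for 41. The median log2 fold change was 0.56 without WT replicate 4 and 0.41 without ARID1A-KO replicate 5, and 18 and 19 members rose in these fits. Of the 26 calls, 18 were kept whichever sample was left out, among them PCDHA1, PCDHA10, all 6 beta genes, PCDHGA2 and PCDHGC3.

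The other genes in and beside the locus moved in both directions. Of the 41 tested within 1 Mb, 12 rose (29.3%, against 17.8% of all genes tested) and 5 fell (12.2%, against 18.4%), with a median log2 fold change of 0.12. The median was 0.055 over the 24 genes before the alpha cluster, 0.058 over the 13 after the gamma cluster and 0.50 over the 4 between the outermost members, of which 2 rose. Over 92 genes within 5 Mb it was -0.019, and no test of members against neighbors was run. ZMAT2, the last tested gene before the alpha cluster, was at 75.1 to 80.1 CPM in WT and 71.2 to 87.0 CPM in ARID1A-KO (0.03 ± 0.078, edgeR adjusted p = 0.81). DIAPH1, an actin-nucleating formin just after the gamma cluster, fell by 0.32 ± 0.055 on the log2 scale (edgeR adjusted p = 0.0019). TAF7, a general transcription factor subunit between the beta and gamma clusters, was at 131, 143 and 134 CPM against 159, 147 and 137 CPM and was not called (0.12 ± 0.071, edgeR adjusted p = 0.22), and neither was PCDHB19P (0.17).

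The remaining tested genes inside the locus both rose. AC005618.6, a plus-strand gene just before PCDHGA1, was at 0.69, 0.52 and 0.67 CPM in WT and 1.85, 1.47 and 1.97 CPM in ARID1A-KO (1.499 ± 0.20, edgeR adjusted p = 0.00039), and AC005609.1, on the minus strand over PCDHA14, was at 1.12, 0.93 and 0.96 CPM against 1.998, 1.69 and 1.67 CPM (0.83 ± 0.17, edgeR adjusted p = 0.0043). Outside the locus, PSD2 (1.52), NRG2 (1.36), CYSTM1 (0.73), CTC-329D1.2 (0.57), SRA1 (0.29) and WDR55 (0.26) on the alpha side and SPRY4 (1.71), PCDH1 (1.30), RELL2 (0.61) and RNF14 (0.28) on the gamma side rose on the log2 scale. HBEGF (-1.14), PFDN1 (-0.45), FCHSD1 (-0.39) and NDUFA2 (-0.18) fell.

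**Figure D4:**
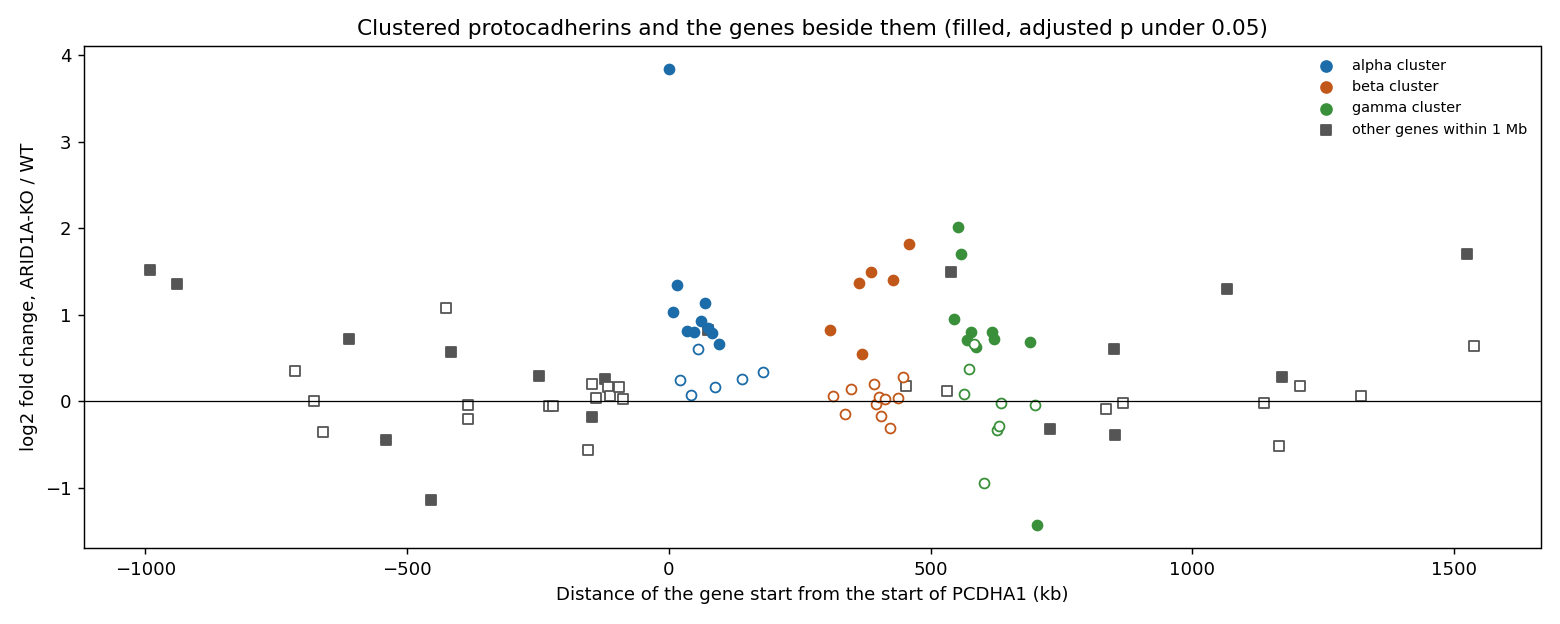
Log2 fold change (y axis) against the distance of each gene's listed start from that of PCDHA1 (x axis, kb), for the tested members (circles, colored by cluster) and the 41 other tested genes within 1 Mb (gray squares); filled symbols have an edgeR adjusted p under 0.05. Most members lie above 0, whereas the gray squares are spread on both sides of it with a median of 0.12.

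The promoter letters were set beside the calls. Plus-strand CGCT in the window was present in 20 of the 24 members that rose and have a canonical start (83.3%), in 21 of the 24 that were not called (87.5%) and in 3 of the 4 that were not tested. PCDHGC5, which fell, has none. PCDHA1, with CGCT 38 bases before the start, PCDHA10 with 40 and PCDHGA2 with 41 rose, but PCDHB10 with 38 and PCDHGA10 with 40 were not called.

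Genes known to act at these promoters were followed as a list. Of 11 genes for CTCF, cohesin and its loading and release, 3 rose and 3 fell (54.5% called, against 36.2% of all genes tested). CTCF, which binds the promoters and enhancers, was at 119, 106 and 109 CPM in WT and 128, 122 and 133 CPM in ARID1A-KO (0.20 ± 0.066, edgeR adjusted p = 0.040), and its call was lost in 5 of the 6 fits that leave out 1 sample. Of the cohesin subunits, SMC3 rose (0.67 ± 0.094), SMC1A (-0.32 ± 0.058) and STAG1 (-0.65 ± 0.097) fell, and RAD21 (-0.16, edgeR adjusted p = 0.13) and STAG2 (-0.08, edgeR adjusted p = 0.42) were not called. The loading factor MAU2 fell (-0.63) and the release factor WAPL, listed as WAPAL, rose (0.23).

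Of 12 genes for silencing and DNA methylation, 1 rose and 3 fell (33.3% called), a share near the 36.2% of all genes tested. REST, a repressor of neuronal genes, rose (0.36), and DNMT1 (-0.43), which maintains DNA methylation, TET3 (-0.41), which oxidizes methylated bases, and EHMT2 (-0.16), a histone H3 methyltransferase, fell. SMCHD1, which silences clustered protocadherins, was at 230, 218 and 207 CPM in WT and 204, 199 and 200 CPM in ARID1A-KO and was not called (-0.12, edgeR adjusted p = 0.16). DNMT3A and DNMT3B, which set new methylation, were not called either.

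Of 13 partners of the proteins, 3 rose and 2 fell (38.5% called), again a share near that of all genes tested. RET, a receptor kinase that binds them (1.36), MARCKS, an actin regulator (2.10), and the gamma-secretase subunit NCSTN (0.23) rose, although RET and MARCKS stayed below 2 CPM in every sample. The focal adhesion kinase PTK2, which the proteins inhibit (-0.31), and CYFIP2 of the WAVE complex (-0.32) fell. The call of RET was lost with DESeq2 (adjusted p = 0.12).

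Protocadherins outside the clusters moved in both directions. Of 12 listed, 9 were tested, and 4 rose and 2 fell (66.7% called, against 36.2% of all genes tested). PCDH19 (2.25), PCDH7 (1.34), PCDH1 (1.30) and PCDH8 (0.67) rose, whereas PCDH18 (-1.84) and PCDH17 (-1.03) fell. PCDH19 was at 0.34, 0.39 and 0.48 CPM in WT and 1.73, 1.89 and 2.15 CPM in ARID1A-KO, and PCDH18 at 6.45, 4.75 and 7.34 CPM against 1.38, 1.49 and 2.24 CPM.

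Markers of neurons, the cells best known for clustered protocadherins, also moved with genotype. Of 9 neuronal markers, 8 were tested, and 5 rose and 1 fell. By comparison, 17.8% of all genes tested rose and 18.4% fell. The summed level of the 9 markers was 42.6 to 45.1 CPM in WT and 95.7 to 101 CPM in ARID1A-KO. None was at 0 in every sample. Most of the rise of the sum lay in SYP and RBFOX3. SYP was at 6.40, 15.8 and 7.84 CPM in WT and 41.95, 43.9 and 30.6 CPM in ARID1A-KO. RBFOX3, a neuronal splicing factor, was at 1.59, 1.55 and 1.63 CPM against 15.3, 17.1 and 19.3 CPM (3.44 ± 0.12, edgeR adjusted p = 4.6e-07), and SYP (1.95), TUBB3 (1.18), MAP2 (0.66) and SYT1 (0.62) also rose, while SNAP25 fell (-0.70). Of the 6 mesenchymal and osteoblast markers, VIM rose (0.84) and SPARC (-0.89) and COL1A1 (-0.47) fell, where 36.2% of all genes tested were called. COL1A2 (-0.46), FN1 (-0.19) and RUNX2 (-0.033) were not called, and the median log2 fold change of the 6 was -0.32. Their summed level was 3914 to 4666 CPM in WT and 5180 to 5991 CPM in ARID1A-KO. The higher sum came from VIM, at 2155 to 2620 CPM in WT and 3846 to 4479 CPM in ARID1A-KO. The part of these shifts in the protocadherin result was not tested.

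Reads on the opposite strand were found over the alpha cluster but hardly over the others. Forward-strand counts came to 11.9 per 100 reverse-stranded counts over the 15 alpha genes other than PCDHA14, which lies under AC005609.1, and to 0.072 and 0.12 per 100 over the beta and gamma clusters. Over whole libraries the forward strand held 5.83% to 6.15% of the reverse-stranded counts. Within the alpha cluster they lay over PCDHA2 to PCDHA12. In WT they reached 297 per 100 reverse-stranded counts at PCDHA3, 139 at PCDHA2 and 55.9 at PCDHA11, whereas PCDHA1, PCDHAC1 and PCDHAC2 held 0 to 2 forward counts per sample and PCDHA13 held none.

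**Figure D5:**
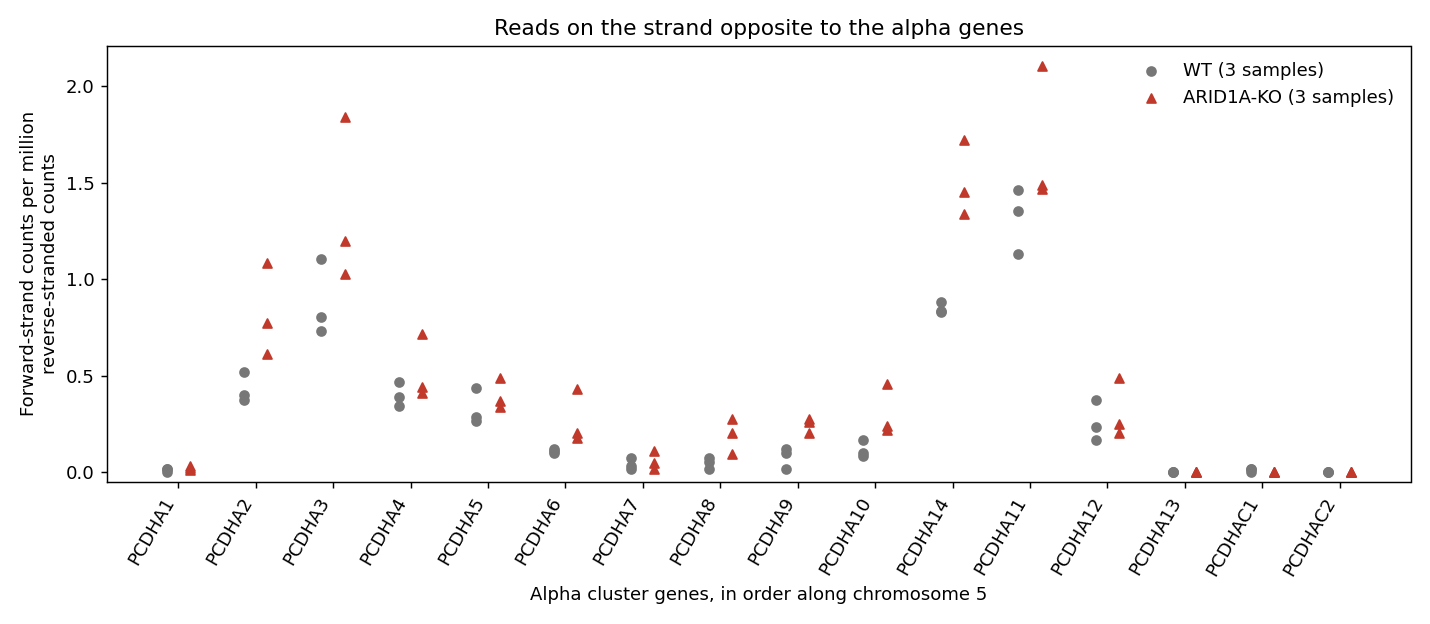
Forward-strand counts per 1000000 reverse-stranded counts (y axis) for each alpha gene in chromosome order (x axis), in the 3 WT (gray circles) and 3 ARID1A-KO samples (red triangles). Values are highest at PCDHA3, PCDHA14 and PCDHA11, near 0 at PCDHA1 and at the C-type genes, and in most genes highest in ARID1A-KO replicate 5.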

How the data were processed

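RNA-seq libraries were made from TRIzol-extracted RNA with a stranded total RNA kit (the labels also name polyA RNA as the molecule). Read pairs had been mapped by the authors with STAR (Roddy workflow, hg19/GRCh37), followed by gene counting in featureCounts. The authors deposited whole-number counts (unstranded, forward and reverse) and TPM values. The TPM divide by all listed exons, constant ones included.

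Reverse-stranded counts of all genes passed through filterByExpr and TMM normalization, and 3 ARID1A-KO samples were set against 3 WT samples with edgeR's quasi-likelihood test (edgeR 4.0.16, R 4.3.3), Benjamini-Hochberg adjusted, at a threshold of 0.05. At a common biological coefficient of variation of 0.111, counting error exceeds the biological spread below 80.6 counts, where 20 of the 51 tested members and 13 of the 26 called ones have their mean count. Constant exons (shared by at least 10 genes of a cluster) and canonical starts came from GENCODE for GRCh37. Alternatives were unstranded counts, RLE, DESeq2 1.42.0, other filters, a replicate block, each sample left out, a threshold of 0.01 and other length scalings. Forward-strand counts, the expression-matched background and the promoter window were chosen after seeing the data. Fits were tested on simulated data.

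Members and lists were chosen with earlier results of these data known. Named are all called members, the 3 highest per kb of each cluster, the C-type genes, CTCF and the cohesin subunits, and called genes of the lists and flanks; other genes that were not called are named as examples after their values were seen. Lists were described by counts, without set tests. Protein sequences were not used here, and the results of some genes are not reported here.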

Additional observations from a re-analysis of the deposited data

Results flagged for a closer look

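The main fit of the gene counts does not use forward-strand counts, whereas the alternative with unstranded counts includes them. In that alternative, the log2 fold change was 0.82 instead of 1.35 for PCDHA3 and 1.09 instead of 0.92 for PCDHA9. Forward-strand counts were present over the alpha cluster in all samples. Over the 15 alpha genes other than PCDHA14 they came to 4.53, 3.33 and 4.21 per 1000000 reverse-stranded counts in WT and to 5.14, 5.41 and 7.99 in ARID1A-KO, so that the groups did not overlap. The mean was 4.02 ± 0.62 in WT and 6.18 ± 1.57 in ARID1A-KO (SD, n = 3 per group), 1.54-fold, and ARID1A-KO replicate 5 was the highest. Of the 10 alpha genes with at least 50 forward counts in all, 6 had every ARID1A-KO sample above every WT sample, against 21.1% of all genes with as many forward counts. These genes are not independent. GENCODE lists minus-strand noncoding genes across the cluster, among them ENSG00000279726, which reaches from PCDHA1 to the start of PCDHA6. PCDHA2 was at 0.37, 0.40 and 0.52 in WT and 0.61, 0.77 and 1.08 in ARID1A-KO, whereas PCDHA3, at 1.11, 0.73 and 0.80 against 1.20, 1.03 and 1.84, overlapped. PCDHA11 did not overlap, but by a narrow margin, with 1.46 as the highest WT and 1.47 as the lowest ARID1A-KO value. No test was run on these counts. PCDHA1, which had the largest rise of the gene counts, held 0 to 2 forward counts per sample.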

How the results depend on the processing

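The count of members that rose was 21 to 25 with unstranded counts, RLE, DESeq2, other filters or the replicate block, and 18 to 22 when 1 sample was left out. Without a filter, all 55 members were tested and 25 rose. At an adjusted p under 0.01, 14 rose and 0 fell, against 1 that fell at 0.05. The count that fell was 0 to 1 when 1 sample was left out, with 0 without WT replicate 4, ARID1A-KO replicate 3 or ARID1A-KO replicate 5. The median log2 fold change was 0.57 to 0.62 under the other fits, 0.41 to 0.70 with 1 sample left out and 0.62 with the median of the neighbors within 5 Mb taken off. Shares of PCDHA6, PCDHB5 and PCDHGC3 moved by less than 1 SD by all exons or by TPM. PCDHA14 was not tested with unstranded counts.

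Of the 26 calls, 17 held under every alternative fit. DESeq2 lost PCDHA2 (adjusted p = 0.057), PCDHA9 (0.053), PCDHGA5 (0.073) and PCDHGA6 (0.062). With 1 sample left out, the highest adjusted p was 0.11 for PCDHA2 (lost without any sample but ARID1A-KO replicate 3), 0.11 for PCDHA13 (without WT replicate 3 or 4, or ARID1A-KO replicate 4 or 5), 0.093 for PCDHA14 (WT 4 or 5, ARID1A-KO 4 or 5), 0.073 for PCDHGA3 and 0.14 for PCDHGA4 (both WT 4 or 5, ARID1A-KO 3 or 5), 0.098 for PCDHGA5 (WT 4 or 5, ARID1A-KO 3 or 4), 0.065 for PCDHGA6 (WT 3 or 4, ARID1A-KO 5) and 0.074 for PCDHGC5. That of CTCF was 0.12, lost without any sample but WT replicate 3, and its call was also lost without a filter (0.051). Among the lists, the genes of the CTCF and cohesin list that rose went from 3 to 1 without ARID1A-KO replicate 3, and the partners that rose from 3 to 1 without WT replicate 3 or 5 or ARID1A-KO replicate 3 or 4. Non-clustered protocadherins that fell went from 2 to 4 without WT replicate 4. The cause was not tested.

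Single members were followed through the alternatives if they were called, among the 3 highest per kb of their cluster, or C-type genes. Among these, signs turned only for members that were not called. The signs of the other members were not followed. With 1 sample left out, the log2 fold change was -0.14 to 0.31 for PCDHA6, -0.051 to 0.32 for PCDHA12, -0.038 to 0.23 for PCDHB5, -0.031 to 0.19 for PCDHGB1 and -0.24 to 0.26 for PCDHGC4. Without WT replicate 4, it was -0.14 for PCDHA6, -0.051 for PCDHA12, -0.031 for PCDHGB1 and 0.26 for PCDHGC4; without ARID1A-KO replicate 5, it was -0.11 for PCDHA6, -0.038 for PCDHB5 and 0.16 for PCDHGC4; and PCDHGC4 was at 0.048 with unstranded counts. With the replicate number as a block, PCDHGC4 was at 0.023, the same 25 members rose and the 1 fell. Deviations of same-numbered samples from their group means correlated at -0.18, 0.27 and 0.18 for replicates 3, 4 and 5. Only replicate 5 correlated best with its own number. With 3 samples per group, the deviations within a group are tied to one another. These correlations therefore cannot decide whether the numbers pair the samples.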
